A study of Mus musculus with 10 samples.

Results

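Of 10 RNA libraries made from mouse inguinal subcutaneous white fat, 2 carried transcripts of lymph node cells at levels far above the other 8. They were chosen by the measured level of 1 gene, Cr2, the complement receptor of mature B cells and follicular dendritic cells, measured as counts per 1e6 gene counts (CPM). FLASH replicate 3 had 482 CPM of Cr2 and CONV replicate 2 had 447 CPM, and both passed the limit of 100 CPM. The other 8 libraries lay below 1 CPM, the highest of them at 0.54 CPM in CONV replicate 1, and they are called the Cr2-low libraries here. Because a measured value chose the pair, every difference between the pair and the 8 is given as a description, without a test.

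The mice were wild-type C57BL/6J, and inguinal fat was taken from the left hindlimb at day 70 after electron irradiation of that limb. The groups were sham (3 libraries, not irradiated), FLASH (4 libraries, 33.3 Gy in the FLASH mode of an ElectronFlash linear accelerator) and CONV (3 libraries, 33.3 Gy in the conventional mode of the same machine). All libraries are labelled as sequencing batch 1, and the labels give neither the age or sex of the mice nor whether each library came from a separate mouse. No sham library was in the pair, and each irradiated group held 1 of its 2 libraries.

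A lymph node holds B cells packed in follicles around follicular dendritic cells, T cells and dendritic cells in the zone between them, and plasma cells and sinus macrophages towards its exit. Lymphocytes enter from the blood through high endothelial venules, which carry mucin-like adhesion ligands, and are drawn to their zones by the chemokines CXCL13, CCL19 and CCL21. The inguinal node lies embedded in the inguinal fat pad, so a piece of that pad can hold node tissue, fat tissue or both.

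The 4 marker transcripts given for the split were high in the same 2 libraries. Cr2 (chr1:195136811-195176716, minus strand, mm10) stood at 0.229, 0.0959 and 0.449 CPM in the sham libraries, at 0.25, 0.35 and 0.125 CPM in FLASH replicates 1, 2 and 4, and at 0.54 and 0.45 CPM in CONV replicates 1 and 3. Glycam1 (chr15:103562759-103565081), a mucin-like adhesion ligand of high endothelial venules, had 42.7 CPM in FLASH replicate 3 and 169 in CONV replicate 2. It had 1 read in the 8 Cr2-low libraries together, in CONV replicate 3, and 955 and 4303 reads in the pair. Fcer2a (chr8:3681737-3694175), the low-affinity IgE receptor CD23 of follicular B cells, stood at 326 and 327 CPM in the pair, against a lowest value of 0.0959, a median of 0.399 and a highest of 0.761 CPM in the 8.
Cxcr5 (chr9:44511787-44561877), the receptor for CXCL13, stood at 115 and 139.8 CPM in the pair, against 0.032, 0.221 and 0.311 CPM (lowest, median and highest) in the 8. Its exons overlap those of Bcl9l on the opposite strand, and the strand setting of the count is unknown here. Groups did not overlap in any of the 4 transcripts, which for Cr2 was fixed by the split rule. Over all genes passing the filter, 44.3% lay above all 8 in both of the pair. Traces were still counted in the 8: 78 reads of Cr2, 105 of Fcer2a and 50 of Cxcr5 in all, with at least 1 read of each in every one of these libraries. Glycam1 is also known from lactating mammary gland. Of 11 mammary epithelium genes, 4 passed the filter, the hormone receptor genes Esr1 and Prlr and the epithelial genes Cdh1 and Epcam. The list summed to 65.2 and 98.7 CPM in the pair against 125 to 247 CPM in the 8. Esr1 and Prlr, each with a mean of at least 10 CPM, were lower in the pair on average. Cdh1 and Epcam had lower values and went the other way on average, so the lower sum is not read as less mammary epithelium. Krt8, Krt18 and Csn3 stood at most at 0.159 CPM in any library and the milk protein gene Wap at 0 in all, while the epithelial adhesion gene Epcam was higher in the pair. Cdh1, epithelial cadherin, stood at 6.12 and 4.27 CPM in the pair against 0.111, 0.446 and 7.85 CPM in the 8. The part of mammary epithelium in the Glycam1 level was not tested.

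**Figure D1:**
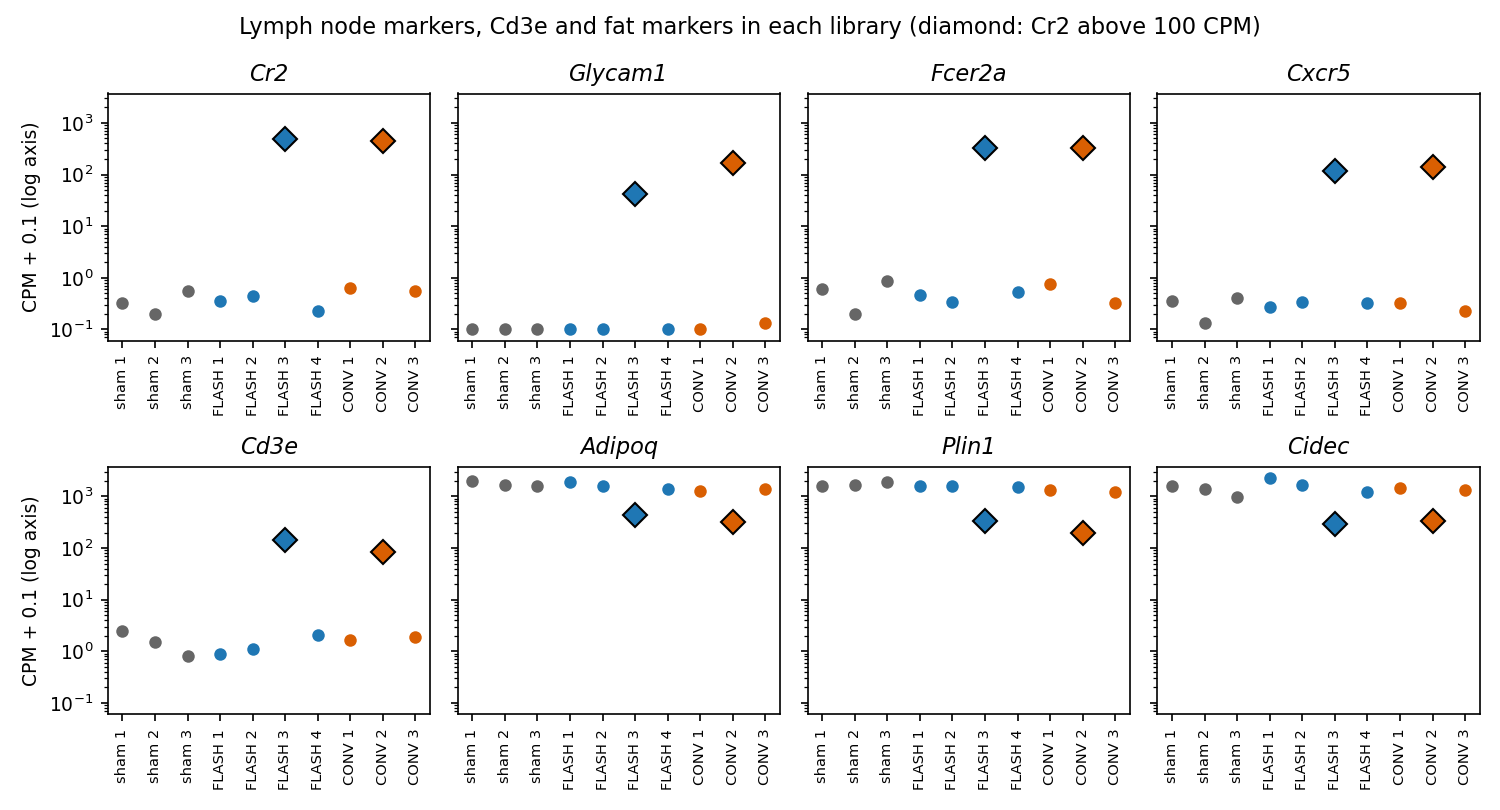
CPM plus 0.1 (log axis) of 8 transcripts in each of the 10 libraries, coloured by treatment, with the pair with Cr2 above 100 CPM as diamonds. Cr2, Glycam1, Fcer2a, Cxcr5 and Cd3e are far higher in the pair, while Adipoq, Plin1 and Cidec are below all 8 other libraries in it but remain at 196 CPM or more.

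The fat label held in every library. Adipoq, the fat hormone adiponectin, had 437 CPM in FLASH replicate 3 and 314 in CONV replicate 2, against 1283, 1615 and 1983 CPM (lowest, median and highest) in the 8. Plin1, the coat protein of the fat droplet, stood at 335 and 196 CPM against 1207, 1588 and 1885 CPM. The pair therefore held transcripts of both tissues, and no library lacked the fat markers. In these bulk samples, fewer cells of a type and less RNA per cell cannot be told apart.

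The pair also differed in its totals. Gene counts were 22.4 M to 25.5 M (M, 1e6 reads) in the pair and 28.6 M to 36.0 M in the 8. Reads outside annotated exons made up 58.9% to 62.9% of entries against 44.2% to 54.5%, and the ribosomal precursor Rn45s took 7.51% to 8.39% of gene counts against 1.79% to 5.27%. The part of these differences in the results was not tested. A count of 3 corresponds to 0.0833 to 0.134 CPM per library, which covers counting error only.

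The contrast covered many genes. Each of the pair was compared with the other libraries of its own treatment group as a difference of log2(CPM + 0.1), a scale that understates the change of low genes. A gene was counted as higher when both libraries of the pair lay above all 8 others and both differences were at least 2 (4-fold). Of 14557 genes with at least 1 CPM in at least 2 libraries, 1505 (10.3%) were higher and 261 (1.79%) were lower by the mirrored rule. Since the pair was chosen within this contrast, nothing is read from these shares, and a gene that passed the filter only through the pair had to be higher.

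Without the fold, 44.3% of the genes lay above all 8 libraries in both of the pair and 22.2% lay below. The median difference over all genes was 0.31 in FLASH replicate 3 and 0.35 in CONV replicate 2, so list medians below are to be read against these values. List counts below are to be read against the shares over all genes: 10.3% counted as higher, 1.79% as lower, 44.3% above all 8 and 22.2% below. With TMM scaling (trimmed mean of M values) the median over all genes was 0.0 and -0.01, and the split became 1233 higher and 578 lower. Genes counted as higher took 10.6% to 11.7% of gene counts in the pair and 0.941% to 1.47% in the 8, and genes counted as lower took 1.39% to 2.07% against 8.23% to 11.4%.

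The differences of the 2 libraries, each from its own treatment group and hence from separate libraries, ran together across genes with a Pearson r of 0.917 and a Spearman rho of 0.919 over 14557 genes, which are not independent replicates. No gene was 4-fold higher in FLASH replicate 3 and 4-fold lower in CONV replicate 2, and 9 genes were the opposite. These 9 were Abca12, Capn11, Dsc1, Dsg1a, Flg2, Krt15, Krt77, Krtdap and Pof1b, most of them known from skin epithelium, and they were looked at after their values were seen. Within 2-fold in both libraries lay 6995 genes (48.1%).

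**Figure D2:**
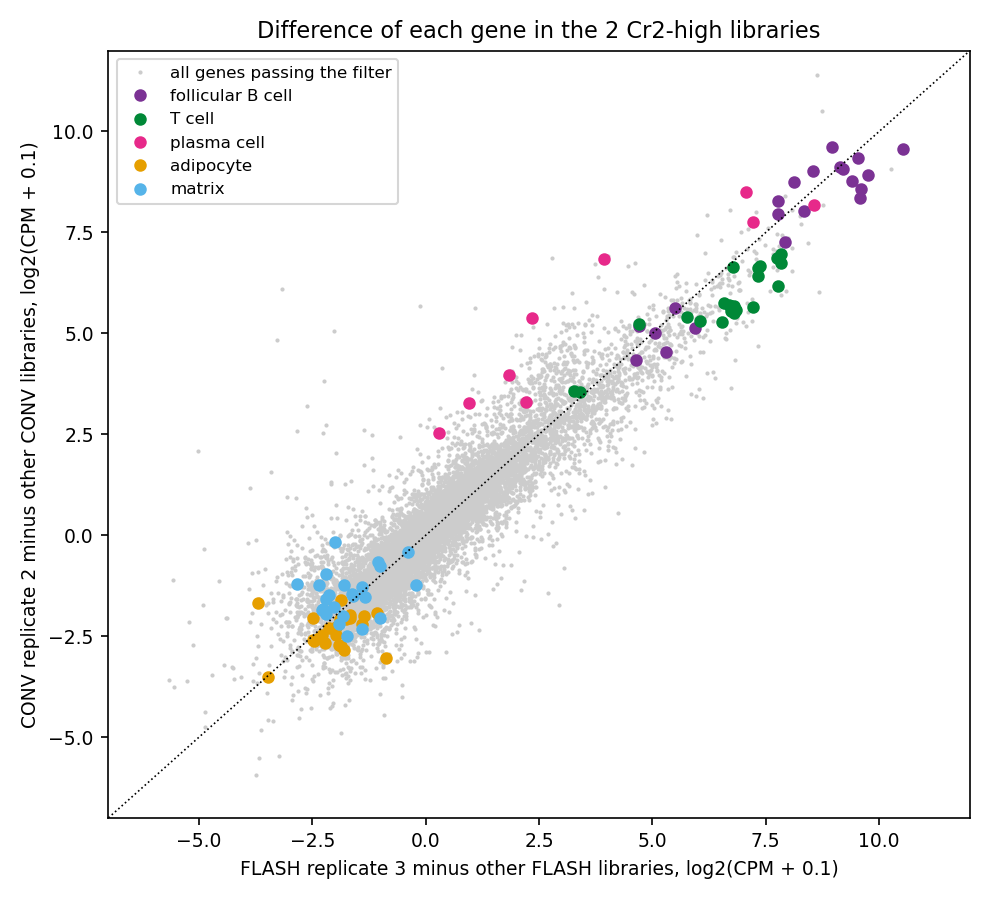
Difference in log2(CPM + 0.1) of each of 14557 genes between FLASH replicate 3 and the other FLASH libraries (x axis) and between CONV replicate 2 and the other CONV libraries (y axis), with 5 gene lists coloured and the line of equal differences dotted. Follicular B cell and T cell genes lie at the upper right, adipocyte and matrix genes at the lower left, and plasma cell genes lie above the line.

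B cell transcripts formed the upper end of the contrast. All 21 follicular B cell genes measured were counted as higher, with a median difference of 8.34 in FLASH replicate 3 and 8.36 in CONV replicate 2, against 0.31 and 0.35 over all genes. Their summed level was 4512 and 5572 CPM in the pair against 30.8, 41.5 and 75.9 CPM (lowest, median and highest) in the 8. Cr2, which chose the pair, is on this list and enters its count, medians and sums. Members that passed the filter only through the pair had to be higher. Cd79a, a signalling chain of the B cell receptor, stood at 239 and 299.7 CPM against at most 1.02 CPM.
Pax5, the transcription factor that holds B cell identity, stood at 137 and 179.6 CPM against at most 0.346 CPM. Spib, an ETS-family factor of B cells and plasmacytoid dendritic cells, stood at 182 and 229 CPM against at most 0.636 CPM. Fcmr, the Fc receptor for IgM, stood at 173 and 191 CPM against at most 0.35 CPM. Cd22, an inhibitory receptor of B cells, stood at 549 and 774 CPM, and the 8 libraries lay between 0.224 and 2.92 CPM. Exons of Pax5 and Cd22 overlap annotated transcripts on the opposite strand.

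Of the 10 genes with the widest gap between the pair and the nearest of the 8, 8 were on the follicular B cell list. Among them were Cr2, whose gap was set by the split rule, and Fcmr, Fcer2a, Pax5, Cxcr5, Spib and Cd79a. The other 2 were Glycam1 and Pcdh15, a cadherin known from the hair cells of the inner ear. Pcdh15 had 146 CPM in FLASH replicate 3 and 85.6 in CONV replicate 2, and the 8 libraries held 8 reads of it together.

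Among genes counted as higher, the promoter windows of Fcrl1, Cd72 and Cd37 are shown because each gene is a B cell surface protein of the list and each window carries the same short ETS-type motif. They were chosen after the values were seen. The motif searched was GAGGAAGT, on both strands (reverse complement ACTTCCTC), in RefSeq promoters from 250 bases before to 50 after the transcription start (GRCm38.p6). It was present in 7.18% of 1379 promoters of genes counted as higher and in 0.429% of 233 promoters of genes counted as lower. The share was 3.18% of 13862 promoters of genes passing the filter and 3.20% of all 32851 promoters in the table. The windows read 5′ to 3′ on the strand of the gene, reach at most 30 bases to either side of the motif but not past the start site, and have the motif in capitals, at chr3:87376342-87376386 (plus strand), chr4:43454638-43454705 (minus strand) and chr7:45238840-45238894 (minus strand).
Fcrl1: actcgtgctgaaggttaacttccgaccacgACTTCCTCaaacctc
Cd72: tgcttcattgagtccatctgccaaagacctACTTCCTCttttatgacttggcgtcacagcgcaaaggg
Cd37: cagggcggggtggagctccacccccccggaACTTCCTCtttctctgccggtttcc
Fcrl1 stood at 105 and 127 CPM in the pair against at most 0.418 CPM in the 8. Cd72 stood at 86.7 and 105 CPM against at most 3.15 CPM. Cd37, which other leukocytes also make, stood at 296 and 312 CPM against 5.98 to 15.2 CPM. In all 3 the pair lay above the 8 without overlap. A match is a description of the letters in the window and not evidence of binding.

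Germinal centre transcripts were mixed. Of 9 measured genes, 6 were counted as higher, with a median difference of 3.70 in FLASH replicate 3 and 4.13 in CONV replicate 2. Mybl1, a transcription factor of germinal centre B cells, stood at 53.4 and 63.3 CPM against 2.19 to 4.74 CPM. Bcl6, a factor of germinal centre B cells that fat also expresses, stood at 90.2 and 113 CPM, inside the range of 42.1 to 183 CPM in the 8. Fas stood at 29.7 and 28.4 CPM, also inside the range of the 8, which was 26.4 to 33.4 CPM.

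All 23 T cell genes were counted as higher, with a median difference of 6.79 in FLASH replicate 3 and 5.67 in CONV replicate 2. Their summed level was 2545 and 1736 CPM, against 41.7, 50.7 and 65.5 CPM (lowest, median and highest) in the 8. Cd3e, a chain of the T cell receptor complex, stood at 146 and 84.3 CPM against 0.726 to 2.38 CPM. Cd4, the coreceptor of helper T cells, stood at 182 and 127 CPM against 0.553 to 2.86 CPM. Cd8a, the coreceptor of cytotoxic T cells, stood at 107 and 63.6 CPM against 0.245 to 0.75 CPM.
Tcf7, a transcription factor of naive and memory T cells, stood at 213 and 156 CPM against 0.864 to 1.66 CPM. Foxp3, which defines regulatory T cells, stood at 19.6 and 10.5 CPM against at most 0.372 CPM. Il21, a cytokine of follicular helper T cells, stood at 2.14 and 4.11 CPM, with 1 read in the 8 libraries together. The 9 genes of regulatory and follicular helper T cells all lay above the 8 in both of the pair, and 7 of them were counted as higher.

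Genes of natural killer and cytotoxic cells were higher as well. All 10 lay above the 8 in the pair and 7 were counted as higher, with a median difference of 2.92 and 2.97. Klrd1, a receptor chain of natural killer cells, stood at 25.6 and 16.9 CPM against 0.361 to 1.66 CPM. Their summed level was 138 and 128 CPM, against 8.85 to 17.4 CPM in the 8.

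Transcripts of lymph node vessels and stroma were higher, but less evenly than those of lymphocytes. Of 7 measured genes of high endothelial venules, 5 were counted as higher, among them Chst4, a sulfotransferase that modifies such ligands, at 5.27 and 8.66 CPM with 1 read in the 8 libraries together. Gcnt1, a glycosyltransferase that acts on the same ligands, stood at 80.3 and 78.6 CPM against 5.33 to 21.4 CPM. B3gnt3 stood below all 8 at 10.2 and 9.79 CPM, against 11.1 to 27.8 CPM. Ackr1, the chemokine-binding receptor of venules, also stood below all 8 at 7.77 and 6.62 CPM, against 8.51 to 22.9 CPM.

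Of 9 genes of follicular dendritic and marginal reticular cells, 7 were counted as higher, with a median difference of 3.59 and 3.04. Clu, a secreted chaperone abundant in follicular dendritic cells, stood at 616 and 703 CPM against 36.5 to 112 CPM. Madcam1, an adhesion molecule of marginal reticular cells and of gut-type venules, stood at 2.5 and 6.11 CPM against at most 0.257 CPM. Prnp, the prion protein gene, stood below all 8 at 119 and 105 CPM, against 247 to 377 CPM. Mfge8 overlapped with the 8, at 365 and 403 CPM against 108 to 437 CPM.

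Of 7 measured genes of fibroblastic reticular cells, 2 were counted as higher, and the median difference was 2.23 in FLASH replicate 3 and 0.76 in CONV replicate 2. Grem1, an antagonist of bone morphogenetic proteins, stood at 13.8 and 24.5 CPM against at most 0.406 CPM. Il33, an alarmin that fat stroma also makes, stood at 50.1 and 44.5 CPM against 4.47 to 29.6 CPM. Pdpn, which lymphatic vessels share, stood at 10.9 and 12.5 CPM, inside the range of 9.24 to 34.6 CPM. Ccl19 and Ccl21a, the defining chemokines of these cells, were listed at 0 in all 10 libraries. Both have near-identical copies in the mouse genome, and reads that align to several places were held out of the gene counts, so their level is uncertain.

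The chemokines and receptors that position lymphocytes were higher in both of the pair. Of 15 measured genes of this homing list, 11 were counted as higher, with a median difference of 4.18 and 4.02. Among the ligands, Cxcl13, which draws B cells to follicles, had 87.2 CPM in FLASH replicate 3 and 145 in CONV replicate 2, against 0.583, 2.81 and 10.7 CPM in the 8. Cxcl12, a chemokine made by many stromal cells, stood at 488 and 289 CPM against 153 to 344 CPM, so that CONV replicate 2 lay inside the range of the 8.
Among the receptors, Ccr7, which reads CCL19 and CCL21, stood at 72.0 and 41.6 CPM against at most 0.636 CPM. Gpr183, which guides B cells along oxysterols, stood at 59.8 and 61.7 CPM against 1.13 to 4.74 CPM. S1pr1, the exit receptor that endothelium also carries, lay above all 8 at 250 and 214 CPM against 71.2 to 145 CPM, short of 4-fold. Hsd3b7, which degrades the oxysterol ligand of GPR183, lay below all 8 at 26.7 and 24.2 CPM against 43.4 to 90.4 CPM.

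Of 15 genes of the lymphotoxin pathway, which builds lymph nodes in development and maintains their stroma, 7 were counted as higher and 13 lay above all 8 in both of the pair. The ligands had the widest differences. Ltb, lymphotoxin beta, stood at 103 and 86.0 CPM against 0.192 to 0.643 CPM. Lta, lymphotoxin alpha, stood at 14.9 and 14.1 CPM against at most 0.156 CPM. Tnfsf14, the related ligand LIGHT, stood at 5.27 and 4.23 CPM against at most 0.89 CPM.
The receptors differed by less, and in both directions. Ltbr, the lymphotoxin beta receptor of stromal cells, lay below all 8 at 24.5 and 22.1 CPM against 49.6 to 92.3 CPM. Tnfrsf1a, a tumour necrosis factor receptor of most tissues, lay below all 8 at 83.3 and 71.8 CPM against 136 to 283 CPM. Tnfrsf1b, the receptor form of leukocytes, lay above all 8 at 142 and 114 CPM against 36.0 to 67.7 CPM. Downstream, Nfkb2, the precursor of the p52 subunit, stood at 181 and 167 CPM against 25.1 to 27.9 CPM, and Relb, its partner, at 77.1 and 51.4 CPM against 9.14 to 12.8 CPM. Exons of Nfkb2 overlap those of Psd on the opposite strand.

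The promoter windows of Ltb, Nfkb2 and Madcam1 are shown because these members of the pathway and its stromal target cells were all counted as higher and each window carries 9 bases of the classical kappa B motif. They were chosen after the values were seen. The motif searched was GGGACTTTC, on both strands (reverse complement GAAAGTCCC), in the same RefSeq promoters (GRCm38.p6). It was present in 1.02% of promoters of genes counted as higher and 0.429% of those of genes counted as lower. The share was 0.426% for genes passing the filter and 0.353% for all promoters. In this order, these shares rest on 14, 1, 59 and 116 promoters. The motif is in capitals, at chr17:35194391-35194459, chr19:46305680-46305743 and chr10:79664460-79664528 (all plus strand), and a match is a description only.
Ltb: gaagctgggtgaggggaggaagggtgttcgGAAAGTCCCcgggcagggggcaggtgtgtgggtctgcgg
Nfkb2: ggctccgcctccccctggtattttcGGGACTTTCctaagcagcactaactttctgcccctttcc
Madcam1: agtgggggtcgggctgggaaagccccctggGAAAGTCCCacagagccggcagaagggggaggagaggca

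Genes of antigen presentation were higher too. All 10 genes of major histocompatibility complex class II were counted as higher, with a median difference of 3.99 and 3.58. H2-Aa, a chain of a classical class II molecule, stood at 1032 and 1007 CPM against 119 to 280.2 CPM. H2-Ob, a chain of the class II inhibitor H2-O that is made mainly by B cells, had a wider difference, at 295 and 316 CPM against 0.863 to 2.32 CPM. Ciita, the coactivator that switches on class II genes, stood at 447 and 543 CPM against 16.4 to 33.3 CPM.

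Of 11 dendritic cell genes, 7 were counted as higher, with a median difference of 4.18 in FLASH replicate 3 and 2.89 in CONV replicate 2. Flt3, the growth factor receptor of dendritic cell precursors, stood at 63.1 and 32.2 CPM against 0.694 to 3.97 CPM. Ccr9, carried by plasmacytoid dendritic cells, stood at 18.9 and 12.1 CPM against at most 0.318 CPM. Zbtb46, a factor of conventional dendritic cells and endothelium, stood at 28.5 and 16.5 CPM against 16.5 to 25.8 CPM. Cd209a stood at 11.1 CPM in FLASH replicate 3, inside the range of the 8, and at 2.55 CPM in CONV replicate 2, below their lowest value of 5.02 CPM.

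Macrophage genes were split by type. Of 7 genes of lymph node sinus macrophages, Marco, Timd4, Cd5l and Itgad were counted as higher, and Cd163 and Vsig4 as lower. Marco, a scavenger receptor of medullary sinus macrophages, stood at 49.4 and 23.2 CPM against at most 0.666 CPM. Timd4, which binds phosphatidylserine on dying cells, stood at 136 and 114 CPM against 2.09 to 11.6 CPM. Cd163, the haemoglobin scavenger receptor that fat macrophages also carry, stood at 13.8 and 30.0 CPM against 71.5, 107 and 391 CPM in the 8.
Of 14 genes of tissue macrophages, none was counted as higher and only Cd163 as lower, with a median difference of -0.09 and -0.48. Mrc1, the mannose receptor, lay below all 8 at 95 and 106 CPM against 175 to 628 CPM. Lyz2, lysozyme of myeloid cells, lay above all 8 at 903 and 1264 CPM against 192 to 733 CPM.

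The lymphatic endothelium list was uneven, with a median difference of 1.24 and 1.22. Of its 11 measured genes, 8 had a positive difference in each of the pair, but only 4 lay above all 8 libraries, where 44.3% of all genes did. The 2 counted as higher were Prox1 and Stab2. Prox1, the factor that sets lymphatic identity, stood at 20.9 and 20.8 CPM against 0.305, 1.69 and 4.29 CPM in the 8. Stab2, a hyaluronan scavenger receptor of sinus-lining cells, stood at 110.1 and 75.6 CPM against 0.74 to 2.89 CPM. Lyve1, a hyaluronan receptor that macrophages also carry, stood at 43.7 and 62.8 CPM, inside the range of 18.1 to 82.8 CPM.

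Transcripts that many cells share were also higher. Over all genes, 44.3% lay above the 8 in both of the pair and 10.3% were counted as higher. All 30 ribosomal protein genes lay above the 8 in both of the pair, with a median difference of 1.39 and 1.68, but 1 of them, Rpl12, reached 4-fold in both. Of 24 interferon-stimulated genes, 21 lay above the 8 and 4 were counted as higher (Mx1, Oas3, Usp18 and Zbp1), with a median difference of 1.77 and 1.35. All 27 cell cycle genes lay above the 8 and 21 were counted as higher, with Mki67, the proliferation marker, at 161 and 489 CPM against 10.2 to 26.7 CPM.

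**Figure D3:**
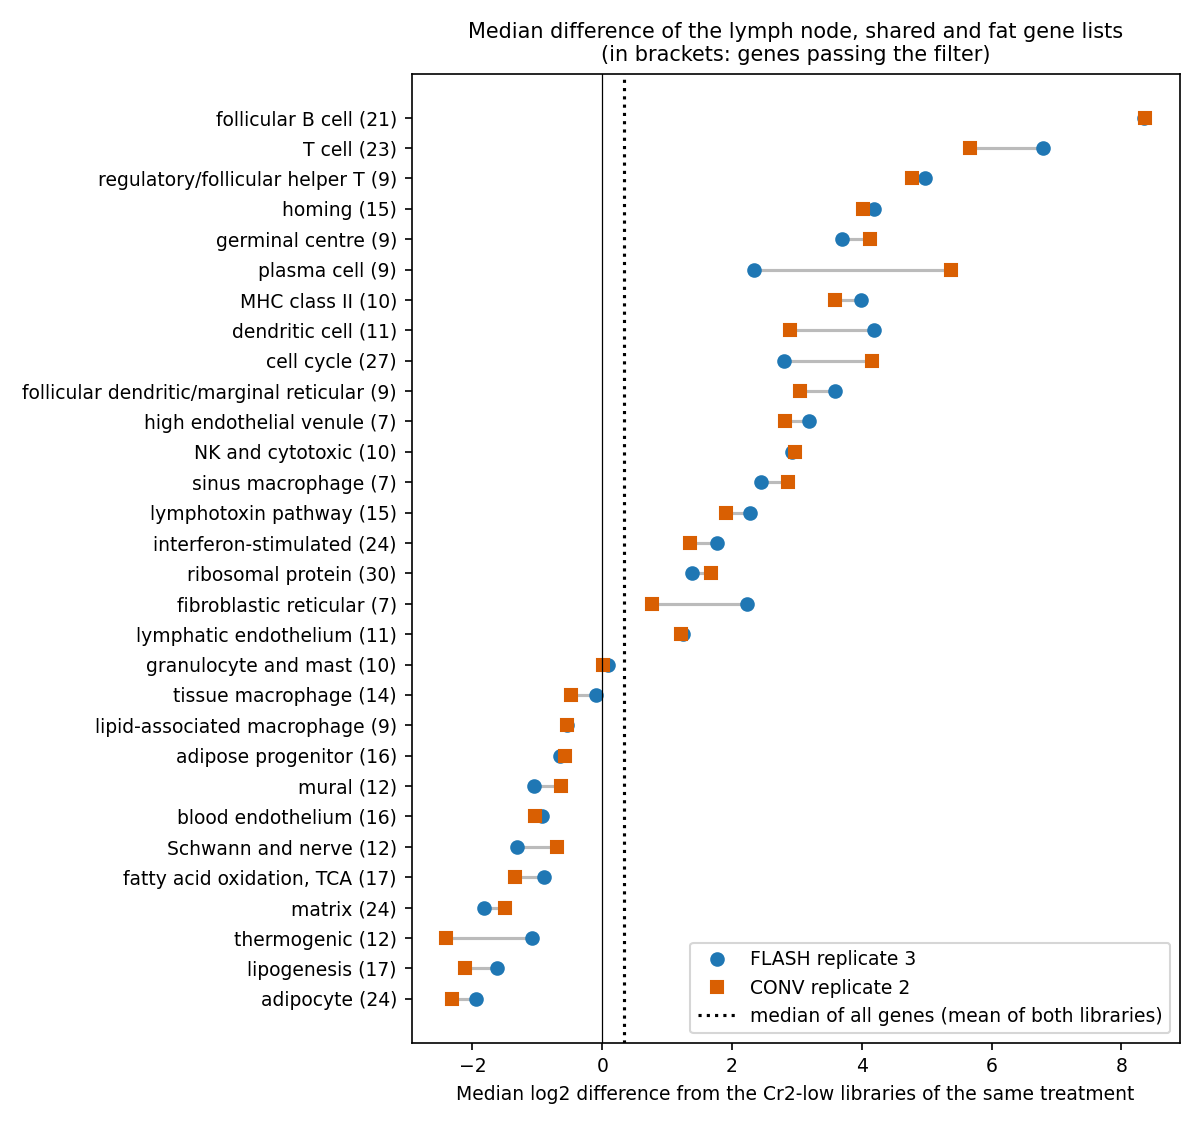
Median difference in log2(CPM + 0.1) of each lymph node, shared and fat gene list in FLASH replicate 3 (circles) and CONV replicate 2 (squares) from the Cr2-low libraries of the same treatment, with the number of genes measured in brackets. The dotted line is the median of all genes, and the lists of other tissues (muscle, keratinocyte, mammary and red cell) are not drawn. Follicular B cell genes are at the top with medians of 8.34 and 8.36, adipocyte genes are at the bottom with -1.95 and -2.32, and thermogenic genes reach -2.40 in CONV replicate 2.

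Fat cell transcripts were lower as a block. Of 24 adipocyte genes, 23 lay below all 8 in both of the pair and 9 were counted as lower, with a median difference of -1.95 in FLASH replicate 3 and -2.32 in CONV replicate 2. Their summed level was 14205 and 10164 CPM, which is 24.8% and 17.8% of the median of 57217 CPM in the 8. Plin4, a coat protein of new fat droplets, stood at 943 and 612 CPM against 3551 to 5895 CPM. Lpl, lipoprotein lipase, stood at 2785 and 1529 CPM against 6899 to 17369.7 CPM.
Car3, the carbonic anhydrase abundant in fat, stood at 3785 and 2505 CPM against 10627 to 17005 CPM. Cfd, the secreted complement factor adipsin, stood at 1449 and 1529.6 CPM against 3396 to 7361 CPM. Adrb3, the adrenergic receptor of fat cells, was the only one of the 24 that overlapped, since FLASH replicate 3 at 137 CPM lay above the lowest of the 8 at 132 CPM, while CONV replicate 2 stood at 57.8 CPM.

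Lipogenic genes were lower with a wider spread among the 8. Of 17, 13 lay below all 8 and 4 were counted as lower (Fasn, Me1, Mlxipl and Dgat2). Scd1, the desaturase that makes monounsaturated fatty acids, had 17621 CPM in FLASH replicate 3 and 6466 in CONV replicate 2, against 42879 to 85037 CPM. Fasn, fatty acid synthase, stood at 1740.3 and 1878 CPM against 2971, 6673 and 33609 CPM. Pck1, which makes glycerol for fat storage, stood at 720.3 and 206 CPM against 1709.8 to 3036 CPM.

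Genes of fatty acid oxidation and the citric acid cycle were less lowered than adipocyte genes. Of 17, 16 lay below all 8 and none reached 4-fold in both, with a median difference of -0.90 and -1.35. Their summed level was 50% of the median of the 8 in each of the pair. Ogdh, a subunit of the oxoglutarate dehydrogenase complex, stood at 318 and 323 CPM against 470 to 676 CPM. Thermogenic genes had a median difference of -1.08 and -2.40, and Ucp1, the defining gene of brown and beige fat, was below 1 CPM in both of the pair and ranged from 0 to 18.0 CPM in the 8.

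The stroma of the fat was lower too. Of 24 matrix genes, 19 lay below all 8 and none reached 4-fold in both, with a median difference of -1.82 and -1.50. Col3a1, fibrillar collagen of soft tissue, stood at 674 and 707 CPM against 1795 to 4408 CPM. Sparc, a collagen-binding protein, stood at 591 and 432 CPM against 1429.7 to 3835 CPM. Fn1, fibronectin, overlapped with the 8 at 204 and 487 CPM against 185 to 1647 CPM.
Adipose progenitor genes had a median difference of -0.65 and -0.57. Col15a1, a basement membrane collagen, was counted as lower at 148 and 91.8 CPM against 273 to 904 CPM. Cd55 and Icam1, which leukocytes also carry, were counted as higher. Cd55 stood at 334 and 304 CPM against 29.0 to 102 CPM.

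Blood vessel genes had a median difference of -0.93 and -1.03 for endothelium and -1.05 and -0.63 for mural cells. Cdh5, the cadherin of endothelial junctions, stood at 131 and 111 CPM against 212 to 332 CPM. Pecam1, which platelets and leukocytes share with endothelium, went against its list at 325 and 305 CPM, against 157 to 249.7 CPM. Genes of Schwann cells and nerve were mixed, with a median difference of -1.31 and -0.69. Of 12, 6 lay below all 8 and 0 were counted as lower, while 4 had a positive difference in each of the pair. Pmp22, a myelin protein, stood at 42.6 and 38.7 CPM against 139.7 to 255 CPM. Mbp, another myelin protein, went against the list, with a mean difference of 1.00 over the pair.

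The 10 genes with the widest gap below the 8 were Crtac1, 9330159F19Rik, Casq1, Clstn2, Fhl1, Cd209g, Map6, Figf, G0s2 and Plin4. Crtac1, an extracellular matrix protein first known from cartilage, stood at 1.88 and 0.901 CPM against 11.7, 18.1 and 32.4 CPM in the 8. Figf, the lymphatic growth factor VEGF-D, stood at 10.1 and 7.83 CPM against 39.2 to 65.3 CPM. G0s2, an inhibitor of fat breakdown, stood at 22.9 and 24.8 CPM against 96.0 to 185 CPM. Exons of Plin4, Casq1 and Crtac1 overlap annotated transcripts on the opposite strand.

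Transcripts of other tissues varied. Skeletal muscle transcripts ranged widely among the 8, with Myh4, a fast myosin, from 0 to 752 CPM and highest in CONV replicate 1. Acta1, skeletal actin, stood at 0.447 and 1.06 CPM in the pair against 0.869, 12.3 and 206 CPM. Mb and Myh2 were counted as lower, but on values too low to detect in single libraries. Mb stood at 0 and 0.0783 CPM against a lowest of 0.0965 CPM in the 8. Myh2 stood at 0 in both of the pair against a lowest of 0.0322 CPM. Ttn, the giant muscle protein titin, did not follow them, at 649.5 and 467 CPM in the pair against 1.11, 141 and 6151 CPM in the 8. Keratinocyte genes, of which 7 of 13 listed passed the filter, had a median difference of -1.96 in FLASH replicate 3 and 1.33 in CONV replicate 2. Their summed level was 10.6 and 19.2 CPM in the pair. It was 201 CPM in FLASH replicate 4, and 23.4 and 36.5 CPM in CONV replicates 1 and 3, so the sum in CONV replicate 2 was not raised.
Epcam, an epithelial adhesion molecule, was counted as higher at 3.35 and 13.7 CPM against at most 1.25 CPM. Beta and alpha globin genes were listed at 0 or below 0.1 CPM in all libraries and have close copies. Alas2, the haem synthesis enzyme of red cell precursors, stood at 2.46 and 2.55 CPM in the pair against 6.22 to 109.8 CPM.

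In 5 genes with at least 30 reads in each of the pair, all 8 Cr2-low libraries had no read. Serpina10, an inhibitor of coagulation proteases, had 27.0 CPM in FLASH replicate 3 and 26.6 in CONV replicate 2. Against the floor of 3 counts over the 8 libraries (0.0118 CPM), it was at least 2290.3-fold higher in the former and at least 2254-fold higher in the latter. The others were Crisp3, Gpr83, Hcrtr2 and Nphs1, at 1.41 to 5.27 CPM in the pair.

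The pair was not alike in all lymph node cells. With 1 library on each side there is no replicate check and no test, and the treatments of the 2 libraries cannot be told apart from other differences between them. Among 1052 genes counted as higher with at least 10 CPM in either library, 142 (13.5%) were at least 2-fold higher in CONV replicate 2 and 24 (2.28%) in FLASH replicate 3. Over all 14557 genes these shares were 3.39% and 2.82%. The median log2 ratio of CONV replicate 2 to FLASH replicate 3 was 0.10 in the 1052 genes.

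Plasma cell genes were higher in CONV replicate 2. All 9 were at least 2-fold higher there than in FLASH replicate 3, with a median log2 ratio of 2.07. Jchain, which joins antibody polymers, stood at 1451 CPM in CONV replicate 2, at 302 CPM in FLASH replicate 3 and at 0.333, 1.51 and 22.4 CPM (lowest, median and highest) in the 8. Mzb1, a chaperone of antibody assembly, stood at 244 and 33.7 CPM in CONV replicate 2 and FLASH replicate 3.
Derl3 and Bhlha15, which serve the secretory apparatus of plasma cells, stood at 82.5 and 40.0 CPM in CONV replicate 2 and at 5.94 and 3.84 CPM in FLASH replicate 3. Sdc1, a surface marker of plasma cells that other cells share, stood at 82.3 CPM in CONV replicate 2 and at 19.6 CPM in FLASH replicate 3, which lay inside the range of 10.4 to 21.0 CPM in the 8. Immunoglobulin constant genes were not analysed here.

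Cell cycle transcripts were also higher in CONV replicate 2. All 27 on the list were higher there, 18 of them at least 2-fold, with a median log2 ratio of 1.34. Top2a, the topoisomerase of dividing cells, stood at 233 and 84.2 CPM in CONV replicate 2 and FLASH replicate 3. Of 45 histone genes with at least 10 CPM in either library, a set added after the values were seen, 44 were higher in CONV replicate 2 and 41 of these at least 2-fold.

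The genes with the largest ratio towards CONV replicate 2 among those counted as higher were Slpi, Cd177, Derl3, Bhlha15, Cacna1h and Mpo. Slpi, a secreted inhibitor of leukocyte proteases, stood at 911 CPM against 56.3 CPM, a ratio of 16.2, and at no more than 0.29 CPM in the 8. Cd177 and Mpo are neutrophil genes, at 19.4 and 10.7 CPM in CONV replicate 2 and 1.12 and 1.34 CPM in FLASH replicate 3. S100a8, an abundant neutrophil protein, stood at 78.2 CPM in CONV replicate 2 and at 1.25 CPM in FLASH replicate 3, inside the range of 0.38 to 2.94 CPM in the 8. The granulocyte and mast cell list as a whole did not lean this way: 4 of its 10 measured genes were higher in CONV replicate 2, and the median log2 ratio was -0.59. Those 4 were S100a8, Mpo, Elane and Cxcr2, while the mast cell proteases Mcpt4 and Tpsb2 stood at 8.93 and 8.74 CPM in CONV replicate 2 against 25.6 and 18.1 CPM in FLASH replicate 3. By a factor of at least 2, 4 genes of the list were higher in CONV replicate 2 and 3 in FLASH replicate 3. Cacna1h, a calcium channel, stood at 148 and 15.3 CPM, and its exons overlap Tpsg1 on the opposite strand.

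FLASH replicate 3 stood higher in dendritic cell and T cell genes. All 11 dendritic cell genes were higher there than in CONV replicate 2, 6 of them at least 2-fold, with a median log2 ratio of -1.05 (CONV replicate 2 over FLASH replicate 3). Ccl22, a chemokine of activated dendritic cells, had 54.7 CPM in FLASH replicate 3 and 10.9 in CONV replicate 2. Xcr1, the receptor of cross-presenting dendritic cells, stood at 30.6 and 10.7 CPM. The largest ratios on this side were those of Gm8221, Apol7c, H2-M2, Dscaml1, Ccl22 and Oprd1, and Apol7c, an apolipoprotein L family gene, stood at 68.4 and 10.3 CPM.

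T cell genes differed by less, with a median log2 ratio of -0.57, and 22 of 23 were higher in FLASH replicate 3. Follicular B cell genes had a median log2 ratio of 0.33 and none differed by 2-fold. Per kilobase of merged exon, Cd79a exceeded Cd3e by a factor of 4.58 in FLASH replicate 3 and 9.96 in CONV replicate 2. By the same measure Cd4 exceeded Cd8a by a factor of 1.53 and 1.81.

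**Figure D4:**
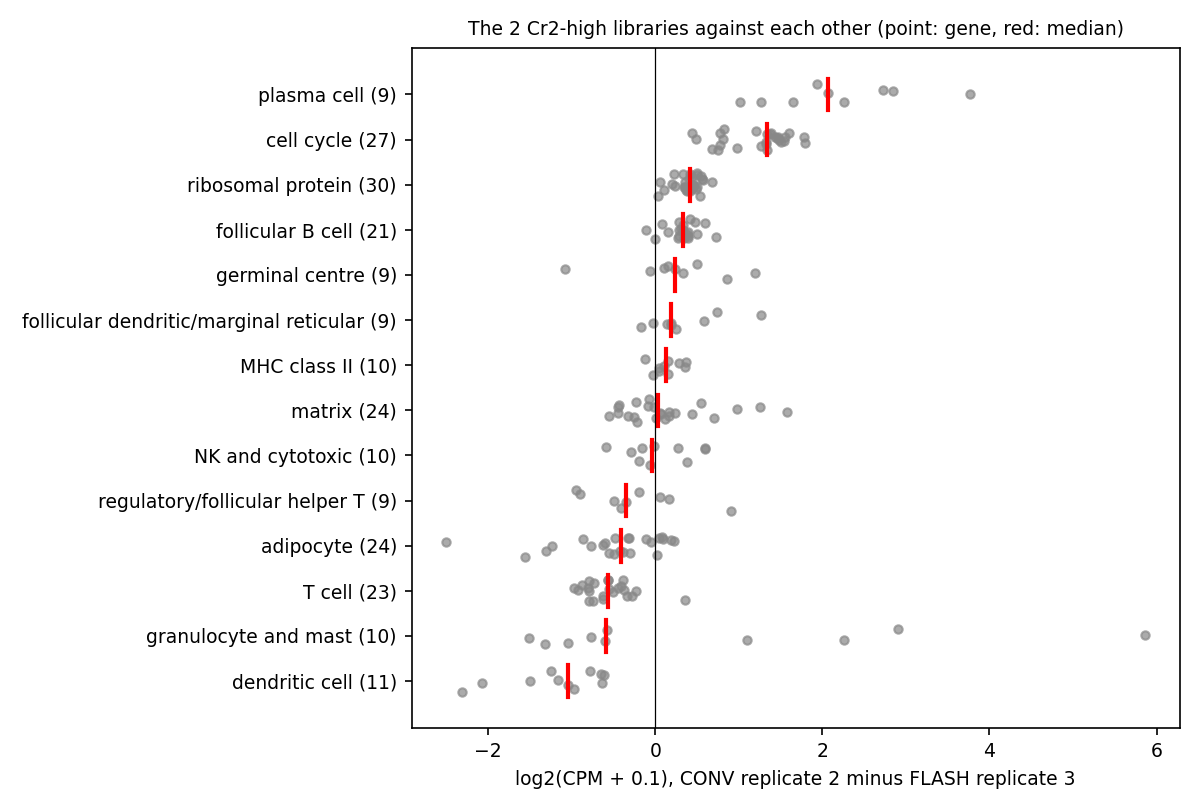
Log2(CPM + 0.1) of CONV replicate 2 minus that of FLASH replicate 3 for the genes of 14 lists (points), with the list median in red and the number of genes in brackets. Plasma cell and cell cycle genes lie to the right (medians 2.07 and 1.34), T cell and dendritic cell genes to the left (medians -0.57 and -1.05).

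The pair sits inside the irradiated groups, so treatment contrasts were fitted with and without it. With all 10 libraries, edgeR's quasi-likelihood test with Benjamini-Hochberg adjustment called 0 of 15266 genes (0.0%) at an adjusted p under 0.05 in each of the 3 contrasts. At an unadjusted p under 0.05 there were 99 genes for FLASH over sham, 889 for CONV over sham and 453 for FLASH over CONV. DESeq2 called 0, 66 (0.432%) and 40 (0.262%) genes in the same order. The FLASH and CONV contrasts share the sham libraries, so their values are only set side by side.

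The genes counted as higher were chosen because both of the pair lay above all 8 others, sham included, and 4-fold above their own group. Raised fold changes with all 10 libraries, and smaller ones without the pair, follow from that choice, so nothing is read from the drop. None of these genes passed in edgeR. Over the 1290 of them that were tested, the median log2 fold change was 1.54 for FLASH against sham and 2.15 for CONV against sham with 10 libraries, and 455 and 705 were at least 4-fold higher than sham. With the 8 Cr2-low libraries the medians were -0.05 and 0.18, and 3 and 17 were at least 4-fold higher. Cr2 itself had a log2 fold change of 8.64 ± 4.03 (SE) for FLASH against sham, with an edgeR adjusted p of 0.998. Without the pair it was -0.04 ± 0.628 (SE), with an edgeR adjusted p of 1. Cr2 chose the pair, so its values here show only what the fit does.

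By list, follicular B cell genes had a median log2 fold change against sham of 6.68 (FLASH) and 7.46 (CONV) with 10 libraries and of -0.16 and 0.76 with 8. T cell genes had 4.73 and 4.44 with 10 libraries and -0.06 and 0.19 with 8. Cell cycle genes had 0.94 and 2.20 with 10 libraries and -0.08 and -0.07 with 8. Interferon-stimulated genes had 0.60 and 1.06 with 10 libraries and -0.01 and 0.66 with 8, and 11 of these 24 genes had an unadjusted p under 0.05 in CONV against sham with 8 libraries, where 2022 of all 15252 genes tested (13.3%) did. No gene of these lists passed at the adjusted threshold in edgeR in either fit.

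**Figure D5:**
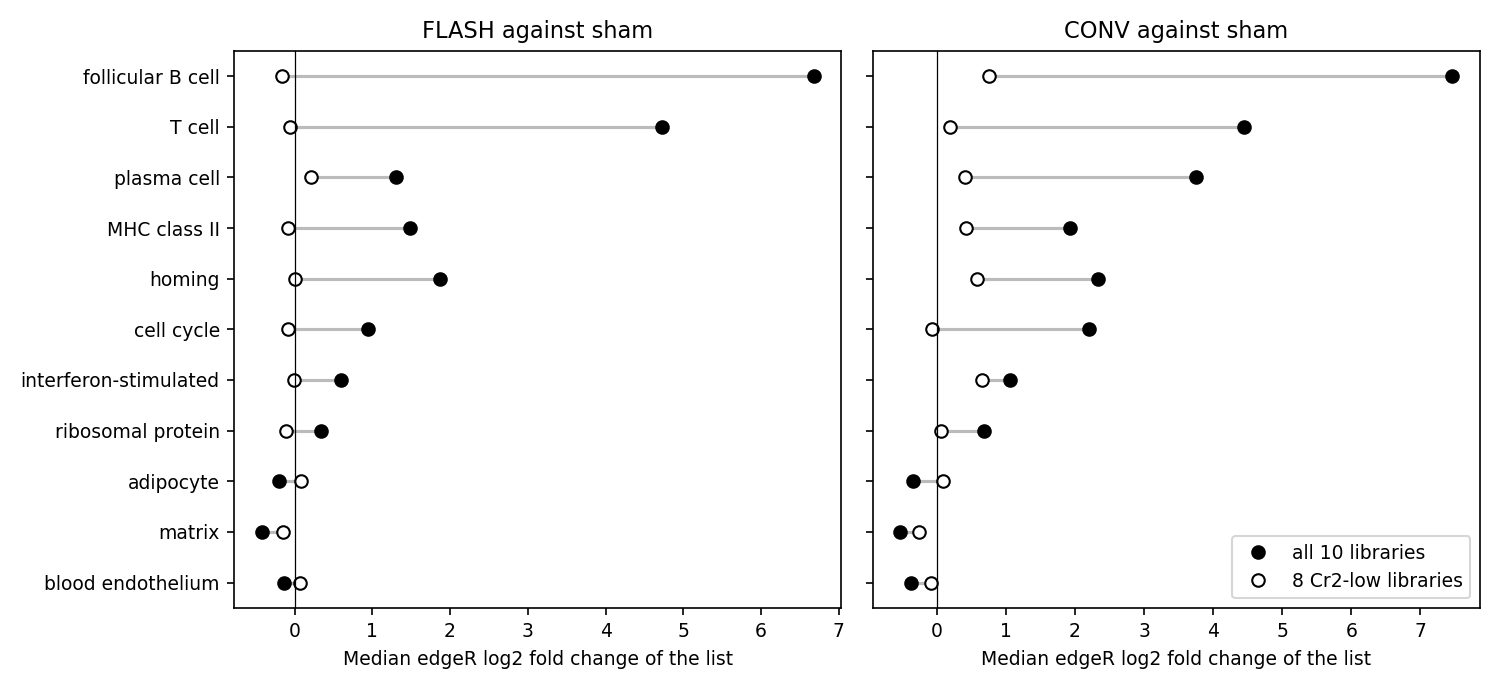
Median log2 fold change (edgeR) of 11 gene lists for FLASH against sham (left) and CONV against sham (right), with all 10 libraries (filled) and with the 8 Cr2-low libraries (open). Filled points of follicular B cell genes lie at 6.68 and 7.46 and open points at -0.16 and 0.76, while adipocyte and matrix medians lie between -0.53 and 0.09 in both contrasts and both fits.

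Without the pair, 6 of 15252 genes (0.0393%) passed in CONV against sham and 2 (0.0131%) in FLASH against CONV, and 0 in FLASH against sham, where 385 genes had an unadjusted p under 0.05, against 2022 in CONV against sham and 2082 in FLASH against CONV. The biological spread between libraries, as edgeR's common coefficient of variation, was 0.543 with 10 libraries and 0.284 with 8. CONV then rested on 2 libraries. None of these genes was among those counted as higher in the pair, and 1, Card14, was among those counted as lower.

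Socs3, a feedback inhibitor of cytokine signals, rose in CONV against sham by 2.56 ± 0.198 (log2, SE) with an edgeR adjusted p of 0.01. It stood at 6.76, 7.26 and 7.99 CPM in sham, at 38.3 and 44.1 CPM in CONV replicates 1 and 3, and at 62.4 CPM in CONV replicate 2. In FLASH it stood at 7.94, 5.84 and 9.07 CPM in replicates 1, 2 and 4 and at 41.2 CPM in replicate 3, so that only the library of the pair was high.

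Il4ra, the receptor chain for interleukin 4, rose in CONV against sham by 1.64 ± 0.155 (log2, SE; edgeR adjusted p of 0.0228). It stood at 38.0 to 43.9 CPM in sham, 104 and 133 CPM in the Cr2-low CONV libraries and 210.4 and 215 CPM in the pair. Prg4, the lubricant proteoglycan of joints, rose in the same contrast by 2.82 ± 0.263 (log2, SE; edgeR adjusted p of 0.0228). It stood at 19.8 and 11.3 CPM in CONV replicates 1 and 3, but at 1.65 CPM in CONV replicate 2, close to the 1.98 to 2.59 CPM of sham.
Card14, a signalling scaffold of epithelia, rose by 3.18 ± 0.239 (log2, SE; edgeR adjusted p of 0.01). It stood at 20.3 and 20.4 CPM in CONV replicates 1 and 3 and at 0.783 CPM in CONV replicate 2, below the 2.01 to 2.59 CPM of sham. Vmp1, a protein of autophagy, also rose in this contrast. Of these 6 genes, Socs3 and Prg4 also passed in FLASH against CONV, and both were lower in FLASH.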

How the data were processed

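The authors deposited raw counts, whole numbers per gene symbol, for each of the 10 libraries. Per the labels' protocols, RNA was extracted from 10 to 15 mg of frozen fat with TRIzol and columns and made into stranded total RNA libraries after ribosomal depletion. The tool and build named per the submitters' processing notes are kallisto 0.5.0 and mm10, and aligner, strand setting and annotation are not stated in the labels or headers. The 5 entries for reads without a gene (52.0% to 69.6% of entries) were left out of library sizes and tests.

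CPM were computed over 24421 genes, and the split rule was applied to Cr2. The 34 gene lists (502 entries, 453 passing the filter) and the members were chosen with earlier results of these data known. Genes were named by a rule: the 4 markers, the 10 widest gaps per direction at a mean of at least 10 CPM, the 3 highest members of each list and those that go against it, 6 genes per direction of the pair, and the homing and lymphotoxin ligands and receptors. Further list members were picked for their known roles after their values were seen.

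Treatment contrasts used edgeR 4.0.16 (quasi-likelihood, TMM, filterByExpr, two-sided, Benjamini-Hochberg) in R 4.3.3, and DESeq2 1.42.0 as an alternative. A standard error is the log2 fold change over the root of the F statistic. Separate mice are not stated per library, so p-values measure the spread between these libraries. Gene positions came from GENCODE M21. The calculations were tested on simulated counts. Some genes named by this rule, and 1 that passed a test, are not reported here.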

Additional observations from a re-analysis of the deposited data

Results flagged for a closer look

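In the 4 FLASH libraries, 1 library stood apart from the others by Dixon's criterion at the 95% level, which chance meets in about 1 in 20 groups, for the summed CPM of 14 of 34 gene lists. In 13 of these the library was FLASH replicate 3, with sums of 4512 CPM for follicular B cell, 788 for plasma cell, 2545 for T cell, 250.5 for regulatory and follicular helper T cell, 138 for natural killer and cytotoxic, 183 for high endothelial venule and 1216 CPM for lymphotoxin pathway genes. The other sums in FLASH replicate 3 were 2859 CPM for homing, 509 for dendritic cell, 4222 for class II, 896 for cell cycle, 1822 for interferon-stimulated and 8549.8 CPM for ribosomal protein genes. In the keratinocyte list FLASH replicate 4 stood apart, with 201 CPM. Of 152 named genes, 81 had 1 FLASH library apart, and in 78 it was FLASH replicate 3, while Dsp and Krt10 stood apart in FLASH replicate 4 and Myh4 in FLASH replicate 2. FLASH replicate 3 was chosen by Cr2, a member of the follicular B cell list, and the lists were chosen with earlier results known. The rate of 1 in 20 therefore does not apply to this library, and nothing is read from its standing apart. CONV has 3 libraries and could not be examined in this way.

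The median difference of the 7 keratinocyte genes passing the filter was -1.96 in FLASH replicate 3 and 1.33 in CONV replicate 2. FLASH replicate 3 was compared with libraries that include FLASH replicate 4, which stood apart. The summed level in CONV replicate 2 was 19.2 CPM, below the 23.4 and 36.5 CPM of CONV replicates 1 and 3. The opposite medians are therefore not read as opposite changes of the list, and the difference was not tested. Reads outside annotated exons, which enter no comparison, were 62.9% of entries in FLASH replicate 3 and 58.9% in CONV replicate 2, above the sham libraries.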

How the results depend on the processing

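The count of genes higher in the pair was 1505 and became 586 with a mean of at least 10 CPM required, 3282 at 2-fold and 816 at 8-fold. The count of lower genes was 261 and became 143 with a pseudocount of 1 CPM, 578 with TMM scaling, 578 with DESeq2 size factors, 1636 at 2-fold and 20 at 8-fold. Leaving out 1 library at a time gave 1206 to 1560 higher and 183 to 680 lower genes, where the lower count was 680 without FLASH replicate 3 and reached 544 and 400 without CONV replicate 2 or CONV replicate 3. Fewer libraries then have to meet the rule, and how much of the change this makes was not tested.

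In edgeR with all libraries, 0 genes were called in each treatment contrast, also with DESeq2 size factors, without a filter and with the Cr2-high libraries as an added term. CONV against sham gave 6 and FLASH against CONV 2 without the pair, and 66 and 40 with DESeq2, and the cause was not tested. Leaving out 1 library gave 0 to 0 for FLASH against sham, and 0 to 1 for CONV against sham (1 without FLASH replicate 3) and for FLASH against CONV (1 without FLASH replicate 3 or without CONV replicate 2). With the replicate number as a block, 0 genes were called in each contrast. Deviations of same-numbered libraries from their group means correlated over 0.1 in 2 of 9 pairs (-0.756 to 0.261), and 1 of 9 correlated best with its own number. These deviations include the Cr2-high libraries, which carry different numbers, so they cannot decide whether the numbers pair the libraries. Over single genes and list medians, 2815 values shifted by no more than the standard deviation between the pair, and 459 moved further. This label does not look at the sign. Some values not counted as a difference changed sign. Among them were the granulocyte and mast cell list (0.05 to -0.25 with TMM scaling) and the mammary list (0.98 to -1.40 at a mean of at least 10 CPM). The keratinocyte list went from -0.31 to 0.21 against all 8 Cr2-low libraries, and Dsp from 0.63 to -0.01 with a pseudocount of 1 CPM. No value counted as a difference reversed. The pair is 2 libraries, without replicates of its kind within a treatment, and transcripts below about 0.134 CPM are not detectable in single libraries.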
